A study of Mus musculus with 98 samples.

Results

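The gene set described here holds 8 mouse genes of fatty acid use, Angptl4, Ucp2, Pdk4, Cpt1a, Cpt2, Acadm, Acadl and Plin2, out of 55852 gene names counted in the study. The genes were listed by name, and all 8 were present in each of the 6 count tables, which cover 98 libraries in 22 groups. Angptl4 and Ucp2 were picked because they were higher with tau in neurons on day 21, so their values in that contrast are a description and carry no test. The other 6 were listed for their known function.

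Culture libraries, 43 in all, came from embryonic hippocampal neurons. In 36 of them the neurons had received on culture day 5, for 48 hours, the blood-brain-barrier-crossing AAV capsid PhP.eB, either as the control called vector or as upACSS2, which raises Acss2, the enzyme that makes acetyl-CoA from acetate. On day 7 they were given the preparation labelled hAD-tau, a name the labels do not spell out and which is called tau here, or phosphate-buffered saline (PBS). Unstimulated cultures, from CD1 mice, were taken on day 9 or day 21, with 3 libraries for each of the 4 combinations of virus and tau on each day. Stimulated cultures of day 21 had the same 4 combinations with 3 libraries each, and the stimulus is not named in the sources used here. Cultures without virus, also from day 21, gave 3 PBS and 4 tau libraries. The 55 mice were males that received either virus by retro-orbital injection, with 1 hippocampal library each. Aged C57BL6 mice (12 vector, 12 upACSS2) are given as 22 to 23 months old. Their age at injection is given as 21 to 22 months and the time with virus as 2 months, and these do not match exactly. C57BL6 mice of 10 months (5 vector, 6 upACSS2) were injected 2 weeks earlier. PS19 mice, which carry a mutant human tau transgene driven by the mouse prion promoter, were injected at 2.5 months and taken after 1 month (at 3.5 months of age) or 6 months (at 8.5 to 9 months), with 5 mice for each virus and time. All mice were taken 30 minutes after a fear conditioning session or its recall, so no group lacks recent learning, and no PS19 comparison has mice without the transgene. The tissue label is whole hippocampus for the aged mice and dorsal hippocampus for the others, except that PS19 upACSS2 mice at 1 month are labelled whole, so for that comparison the virus cannot be told apart from the part of hippocampus taken. Groups follow the sample titles, which some treatment labels contradict. On both days the unstimulated libraries titled vector with tau carry a treatment label of vector with PBS, and those titled upACSS2 with PBS one of upACSS2 with tau. Each unstimulated tau comparison thus depends on following the titles. The column names of the unstimulated counts, which hold AD or PBS and Mock or OE, match the titles. PS19 mice titled upACSS2 at 1 month carry a vector label, and 1 mouse titled vector at that time carries an upACSS2 label.

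Fatty acids activate the peroxisome proliferator-activated receptors (PPARs), nuclear receptors that pair with retinoid X receptors on DNA. Their best known targets let a cell take up, store and burn fat. Angptl4 is a secreted inhibitor of lipoprotein lipase. Plin2 coats lipid droplets. Pdk4 phosphorylates and so inhibits pyruvate dehydrogenase, which spares glucose. Cpt1a and Cpt2 are the outer and inner carnitine palmitoyltransferases that carry long-chain fatty acids into mitochondria, Acadm and Acadl catalyse the first step of beta-oxidation for medium-chain and long-chain substrates, and Ucp2 is an inner-membrane carrier of the uncoupling protein family. In brain, fatty acid oxidation is known mainly from astrocytes and little from neurons. Angptl4 and Pdk4 also respond to low oxygen and to glucocorticoids in other tissues.

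Promoters of 7 members, all but Angptl4, were matched by symbol in RefSeq (GRCm38.p6). The 250 bases before each start site were searched on both strands for AGGTCA, the 6-base nuclear receptor half-site, for its direct repeat AGGTCANAGGTCA, and for the hypoxia cores ACGTG and GCGTG. The direct repeat was in none of the 7 and in 0.0335% of 32851 promoters of that length. AGGTCA was in Acadm, Plin2 and Cpt1a, against 14% of all promoters, and every direct repeat also holds the half-site. For Cpt1a the start site used lies within the gene model. Its stretch from 250 to 41 bases before that start, chr19:3323051-3323260, is thus inside the gene span. ACGTG was in none of the 7 (16.6% of all), and GCGTG was in Ucp2, Pdk4, Cpt2, Acadm and Plin2 (28.2% of all). A match is a description of letters, not a binding site. The 3 promoters below are shown because Plin2, which rose with time in culture, and Acadm, which did not pass that test, both carry the half-site, while Pdk4 rose and does not. Each runs 5′ to 3′ on the gene's own strand, the minus strand in all 3, from 250 to 41 bases before the start, and capitals mark the half-site, which reads TGACCT here because it lies on the opposite strand. Acadm spans chr3:153944684-153944893, Plin2 chr4:86670100-86670309 and Pdk4 chr6:5496319-5496528.
Acadm: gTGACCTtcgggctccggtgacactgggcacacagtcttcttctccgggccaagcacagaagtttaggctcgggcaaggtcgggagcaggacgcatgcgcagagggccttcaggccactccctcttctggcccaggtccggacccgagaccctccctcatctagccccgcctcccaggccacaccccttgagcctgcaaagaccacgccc
Plin2: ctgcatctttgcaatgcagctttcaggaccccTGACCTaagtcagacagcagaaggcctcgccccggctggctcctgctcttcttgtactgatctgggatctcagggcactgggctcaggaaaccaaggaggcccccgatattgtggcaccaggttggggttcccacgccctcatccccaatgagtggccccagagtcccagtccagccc
Pdk4: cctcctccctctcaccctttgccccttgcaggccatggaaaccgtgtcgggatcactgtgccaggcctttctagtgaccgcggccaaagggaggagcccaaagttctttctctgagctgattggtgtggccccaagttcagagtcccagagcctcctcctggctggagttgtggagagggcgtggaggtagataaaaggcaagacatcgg

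Library totals ran from 5075099 counts in the 10-month mice to 39985460 in the stimulated cultures. Acss2 checked the labels: it was 1488 to 5462 CPM, counts scaled to library size, in the upACSS2 cultures and 40.1 to 57.9 in the vector cultures. In the mice it was less even. It was 46.7 to 61.5 CPM in aged upACSS2 mice against 39.96 to 53.7 with vector, overlapping (log2 difference 0.20 ± 0.05, edgeR adjusted p = 0.832), and 49.9 to 59.3 against 42.3 to 48.9 in mice of 10 months (0.31 ± 0.07, edgeR adjusted p = 0.518), so Acss2 did not pass the test in either. PS19 mice gave 60.1 to 1465 CPM with upACSS2 at 1 month and 45.0 to 237 at 6 months, where the range overlapped that of the vector mice (43.1 to 56.0). Neuron markers were high in all cultures, but so were astrocyte markers. The summed level of 7 astrocyte markers, none of them at 0 in any unstimulated library, was 2273 to 2834 CPM on day 9 and 3654 to 20400 on day 21, with the highest value in replicate 3 of the vector PBS group. Microglial markers summed to at most 12.6 CPM in the unstimulated cultures, endothelial markers to at most 1.15, and blood markers to 0. In bulk libraries, fewer cells of a type and less RNA per cell cannot be told apart. Nothing in the labels says that culture replicates came from separate cultures, so their p-values measure only the spread between these samples.

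Per kilobase of merged exons, Acadl had the highest median level in every table. The genes picked for tau were lowest in the cultures with virus. The merged length pools all annotated transcripts, 6.99 kilobases over 11 transcripts for Ucp2 and 3.54 over 4 for Angptl4. The order may differ for the transcripts in use. On day 9 the median over 12 libraries was 14.9 CPM per kilobase for Acadl, 9.87 for Acadm, 4.33 for Cpt1a, 1.42 for Cpt2, 0.802 for Plin2, 0.559 for Pdk4, 0.309 for Angptl4 and 0.170 for Ucp2. The 12 libraries of day 21 gave the same order: 20.5 for Acadl, 2.16 for Pdk4, 1.18 for Angptl4 and 1.04 for Ucp2. The ranges of Angptl4 (0.488 to 3.51) and Ucp2 (0.278 to 2.66) overlapped on that day. In aged mice Angptl4 was the lowest at 0.399, while Ucp2, at 1.94, stood above Plin2 at 1.32. The genes lie at chr17:33773750-33781830 (Angptl4), chr7:100493337-100502020 (Ucp2), chr6:5483351-5496309 (Pdk4), chr19:3322334-3385733 (Cpt1a), chr4:107903981-107923610 (Cpt2), chr3:153922357-153944632 (Acadm), chr1:66830839-66863277 (Acadl) and chr4:86648386-86670060 (Plin2), as whole gene models of GRCm38.

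The largest differences in the set came with time in culture. In vector cultures with PBS, 7 of the 8 genes rose from day 9 to day 21, the exception being Acadm. Ucp2 was at 0.981, 0.965 and 1.27 CPM on day 9 and at 11.3, 3.89 and 12.5 on day 21. The lowest library of day 21 was above the highest of day 9. The log2 fold change of Ucp2 was 3.12 ± 0.41 (SE, n = 3 and 3; edgeR adjusted p = 2.3e-06). Angptl4, the lipase inhibitor, was at 1.26, 0.603 and 1.21 CPM on day 9 and at 4.22, 4.12 and 9.94 on day 21, and rose by 2.54 ± 0.40 (edgeR adjusted p = 1.69e-05). Pdk4 was at 2.30, 1.99 and 2.24 CPM against 8.64, 6.89 and 21.9, and rose by 2.52 ± 0.40 (edgeR adjusted p = 1.9e-05). The groups did not overlap for Angptl4 or Pdk4, and replicate 3 of day 21 was the highest for both. Angptl4 and Ucp2 were picked for a tau difference in day 21 neurons, with no virus group named, so their calls are no separate evidence.

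Genes of lipid storage and of mitochondrial import rose as well. Plin2 was at 2.67, 2.53 and 3.58 CPM on day 9 and at 7.36, 10.7 and 18.3 on day 21, a rise of 2.07 ± 0.33 (edgeR adjusted p = 1.89e-05). Cpt2 was at 3.16, 4.28 and 3.76 CPM and then at 8.24, 9.24 and 15.4, a rise of 1.57 ± 0.24 (edgeR adjusted p = 1.16e-05). Both genes had separate ranges on the 2 days. Cpt1a, whose product catalyses the regulated step of import, was at 35.0, 34.9 and 37.8 CPM and then at 47.8, 52.0 and 119 (1.03 ± 0.31, edgeR adjusted p = 0.00744). Acadl was at 37.2, 32.5 and 34.6 CPM and then at 40.6, 46.4 and 93.6 (0.80 ± 0.24, edgeR adjusted p = 0.00713). For Cpt1a and Acadl the third library of day 21 was far above the other two. Without it, Cpt1a had a log2 fold change of 0.46 (adjusted p = 0.156) and Acadl 0.31 (adjusted p = 0.171), and 5 genes were called. Acadm was at 39.2, 40.9 and 43.5 CPM and then at 38.0, 45.4 and 74.8, with overlapping ranges (0.36 ± 0.19, adjusted p = 0.108). Without library 1 of day 21 it was called (0.57, adjusted p = 0.0143).

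Across the 4 combinations of virus and tau, Angptl4, Ucp2, Pdk4, Cpt2 and Plin2 were called higher on day 21 each time, and again in all 6 fits of each combination that left out 1 library. The count was 7 of 8 in vector PBS (30.6% of all genes were called higher), 5 in vector tau (27.7%), 6 in upACSS2 PBS (28.5%) and 6 in upACSS2 tau (27.2%). The median log2 fold change of the set was 1.82, 1.45, 1.29 and 1.50, against 0.05, 0.04, 0.03 and 0.01 over all genes. Angptl4 and Ucp2 were picked on libraries of day 21, with no virus group named, so their calls here are no separate evidence. Over the 6 members not picked the counts were 5, 3, 4 and 4 in the same order. Pdk4 rose by 2.40 in vector tau, 1.64 in upACSS2 PBS and 2.52 in upACSS2 tau. Acadl was called in both upACSS2 groups (0.59 and 0.61, adjusted p = 0.0451 and 0.0352) and not in vector tau (0.38, adjusted p = 0.191). When 1 library was left out, the Acadl call was lost in 5 of 6 fits in upACSS2 PBS and in 4 of 6 in upACSS2 tau, where its lowest value was 0.37 (adjusted p = 0.255) without replicate 3 of day 21. Acadm stayed within 0.07 of 0 in the other 3 groups, at 0.01, 0.00 and -0.06. Of the 7 astrocyte markers, 6, 3, 3 and 6 were called higher in the same order, with medians of 1.80, 0.92, 0.61 and 1.11. Of 5 oligodendrocyte markers, 4 were called higher in each combination (medians 3.46, 3.62, 4.21 and 4.12), and the fifth, Mog, was called lower. Both precursor markers, Pdgfra and Cspg4, were called higher in each (3.91, 4.79, 6.02 and 5.57). Over the 24 unstimulated libraries the correlation with the log2 oligodendrocyte sum was 0.92 for Cpt2 and Plin2, 0.88 for Pdk4, 0.83 for Ucp2, 0.82 for Angptl4, 0.72 for Acadl, 0.68 for Cpt1a and 0.20 for Acadm, as a description over points that share day, depth and scaling. With the astrocyte sum the correlation was 0.935 for Pdk4, 0.913 for Angptl4, 0.905 for Ucp2, 0.894 for Plin2 and 0.889 for Cpt2. It was 0.891 for Acadl, 0.835 for Cpt1a and 0.451 for Acadm. With the precursor sum it ran from 0.112 for Acadm to 0.915 for Plin2, and with the neuron sum from -0.836 for Cpt1a to -0.356 for Ucp2. The part of these cell types in the members' rise was not tested.

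**Figure D1:**
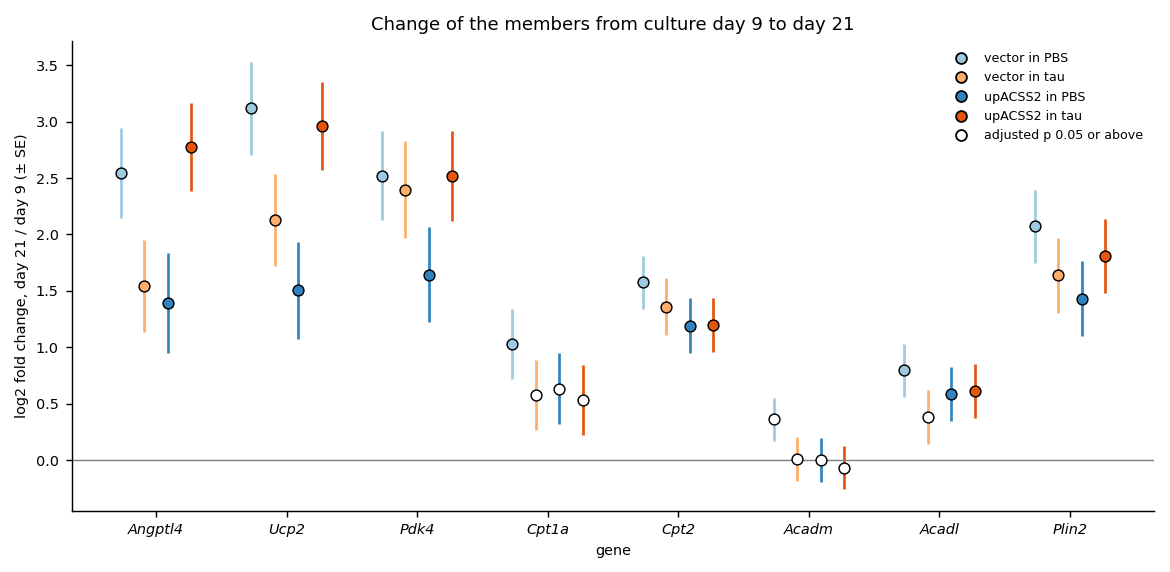
Log2 fold change from day 9 to day 21 (y axis) of each of the 8 genes (x axis) in the 4 combinations of virus and tau; points are edgeR estimates, bars 1 SE, and open points did not pass the adjusted threshold of 0.05. Ucp2, Angptl4, Pdk4, Plin2 and Cpt2 lie above 1 in all 4 combinations, and Acadm lies near 0 in 3 of them.

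Among other genes of the pathway, called genes were found in both directions. These lists were chosen with earlier results of these data known, so their counts are a description. The background in the same order was 30.6, 27.7, 28.5 and 27.2% of all genes called higher and 27.1% (vector PBS), 24.9% (vector tau), 25.8% (upACSS2 PBS) and 26.4% (upACSS2 tau) called lower. Of 21 tested genes of mitochondrial fatty acid oxidation outside the set, 16, 16, 15 and 17 rose and 2, 2, 2 and 3 fell from day 9 to day 21 in vector PBS, vector tau, upACSS2 PBS and upACSS2 tau. In vector PBS the short-chain dehydrogenase Acads rose by 1.70 ± 0.21 and the dienoyl-CoA reductase Decr1 by 1.66 ± 0.30, while the thiolase Acaa2 fell by 1.00 ± 0.15. Of 16 peroxisomal genes, 9, 6, 7 and 7 rose and 1, 1, 2 and 2 fell. Of 23 genes of fatty acid activation and lipid droplets, 11, 10, 7 and 11 rose and 7, 5, 8 and 7 fell. Among these, G0s2, an inhibitor of the triglyceride lipase ATGL, rose by 2.55 ± 0.30, and Pnpla3, a lipase-like protein of the droplet, fell by 2.23 ± 0.18.

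Read against that background, the counts of the smaller lists are a description only. Of 12 PPAR receptors and partners, 6, 4, 5 and 7 rose and 2, 1, 2 and 3 fell over the same 4 comparisons. Ppard, the gene of PPAR delta, had a mean of 12.2 CPM on day 9 and 18.8 on day 21 in vector PBS and rose in all 4 combinations, by 0.62 to 0.73 on the log2 scale. Rxra rose by 1.38 ± 0.12 in vector PBS. Among 17 tested of 24 other PPAR targets, 8, 4, 4 and 6 rose and 5, 3, 3 and 4 fell. Lpl, the lipase that Angptl4 inhibits, fell by 2.09 ± 0.27 in vector PBS from a mean of 502 CPM to 118. Of 12 tested relatives and partners of the members, 4, 6, 2 and 4 rose and 3, 3, 2 and 2 fell, with Pdk2 higher by 1.15 ± 0.13 and the phosphatase gene Pdp2 lower by 1.04 ± 0.14 in vector PBS. Of 15 glucocorticoid-responsive genes, 11, 12, 12 and 12 rose and 2, 1, 1 and 1 fell.

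On day 9, 2 days after tau, 1 member passed the test. Acadl was at 37.2, 32.5 and 34.6 CPM in vector PBS and at 26.6, 26.1 and 28.8 in upACSS2 PBS. Every upACSS2 library was below every vector library. Acadl fell by 0.37 ± 0.07 on the log2 scale with upACSS2 in PBS (edgeR adjusted p = 0.00223), the only member of 8 called, where 10.2% of all genes were called. In a fit to all 24 libraries of both days the difference in Acadl was -0.36 with an edgeR adjusted p of 0.930, and the biological coefficient of variation was 0.135, against 0.042 in the day 9 fit. Of 21 other mitochondrial oxidation genes, 6 were called lower and none called higher in this comparison, and by sign 15 were lower and 6 higher. Among those called were Eci1 (-0.63, adjusted p = 0.00601) and Decr1 (-0.50, adjusted p = 0.0087). Both oligodendrocyte precursor markers were called lower (median -1.55), 2 of 4 tested oligodendrocyte markers were called lower with all 4 lower by sign, and of 7 neuron markers 3 were called higher and 1 lower. Their part in the difference of Acadl was not tested.

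With tau on day 9, Acadl was at 29.0, 29.0 and 31.6 CPM with vector and at 30.5, 28.5 and 33.0 with upACSS2, and these groups overlapped. The effect of tau on Acadl differed between the viruses by 0.41 ± 0.10 (interaction, edgeR adjusted p = 0.0483), again 1 of 8 genes, against 0.663% of all genes. That call was lost in 10 of 12 fits that left out 1 library each, and held without upACSS2 PBS replicate 3 (adjusted p = 0.0434) or vector tau replicate 3 (adjusted p = 0.0101). No member was called in the other 3 comparisons of day 9. With upACSS2 against vector in tau, edgeR called 0.692% of all genes, and 1 member had an unadjusted p under 0.05 (12.6% of all genes). With tau against PBS in vector cultures 4.28% of all genes were called, and 3 members had an unadjusted p under 0.05 (20.6%), Acadl being nearest at -0.23 ± 0.07 (adjusted p = 0.0547). With tau against PBS in upACSS2 cultures 0.349% of all genes were called, and 3 members had an unadjusted p under 0.05 (9.05%). DESeq2 called no member in these 3 comparisons.

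On day 21 the picked genes were lowest in upACSS2 PBS and highest in upACSS2 tau. Angptl4 was at 2.21, 1.73 and 2.00 CPM in upACSS2 PBS and at 7.37, 4.36 and 12.4 in upACSS2 tau, against 4.22, 4.12 and 9.94 in vector PBS and 2.88, 5.06 and 4.14 in vector tau. All 3 upACSS2 PBS libraries were below all other libraries of that day. Ucp2 was at 3.20, 1.95 and 4.45 CPM in upACSS2 PBS, 10.7, 8.40 and 18.6 in upACSS2 tau, 11.3, 3.89 and 12.5 in vector PBS and 6.88, 4.85 and 7.66 in vector tau. For Ucp2 the vector groups overlapped each other and 1 vector PBS library lay within the upACSS2 PBS range. Tau against PBS with upACSS2 is a contrast of the kind that chose them. It gave log2 differences of 2.04 ± 0.44 for Angptl4 and 1.99 ± 0.46 for Ucp2. With vector the same difference was -0.63 ± 0.42 and -0.53 ± 0.44.

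Among the members not picked on tau, Pdk4 was also lowest in upACSS2 PBS. It was at 6.27, 5.45 and 3.75 CPM in upACSS2 PBS and at 8.17, 7.26 and 20.4 in upACSS2 tau, against 8.64, 6.89 and 21.9 in vector PBS and 6.67, 9.49 and 7.92 in vector tau. The upACSS2 PBS libraries were the 3 lowest of the day, and 1 library each of upACSS2 tau and vector PBS stood far above the rest. The difference with tau was 1.22 ± 0.48 in upACSS2 cultures (edgeR adjusted p = 0.762) and -0.67 ± 0.47 in vector cultures (adjusted p = 0.61), so neither passed. Cpt1a, Cpt2 and Acadm differed with tau by 0.02, -0.03 and -0.04 in upACSS2 cultures, each with an SE of at least 0.25, Acadl by 0.22 ± 0.32 and Plin2 by 0.49 ± 0.37.

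edgeR called no member in any of the 5 comparisons of day 21. Angptl4 and Ucp2 were picked on these libraries, so the counts that follow are over the other 6. With tau against PBS in upACSS2 cultures, edgeR called 0% of all genes, and 1 of the 6, Pdk4, had an unadjusted p under 0.05 (6.36% of all genes). With tau against PBS in vector cultures 0% of all genes were called, and none of the 6 had an unadjusted p under 0.05 (9.3%). With upACSS2 against vector in PBS 0.0137% of all genes were called, and Pdk4 alone had an unadjusted p under 0.05 (16.6%). With upACSS2 against vector in tau 0.0273% were called, and none of the 6 had one (10.7%). For the interaction 0% were called, and Pdk4 alone had one (8.3%). DESeq2 called none of the 6 in these 5 comparisons. The biological coefficient of variation of day 21 was 0.189.

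**Figure D2:**
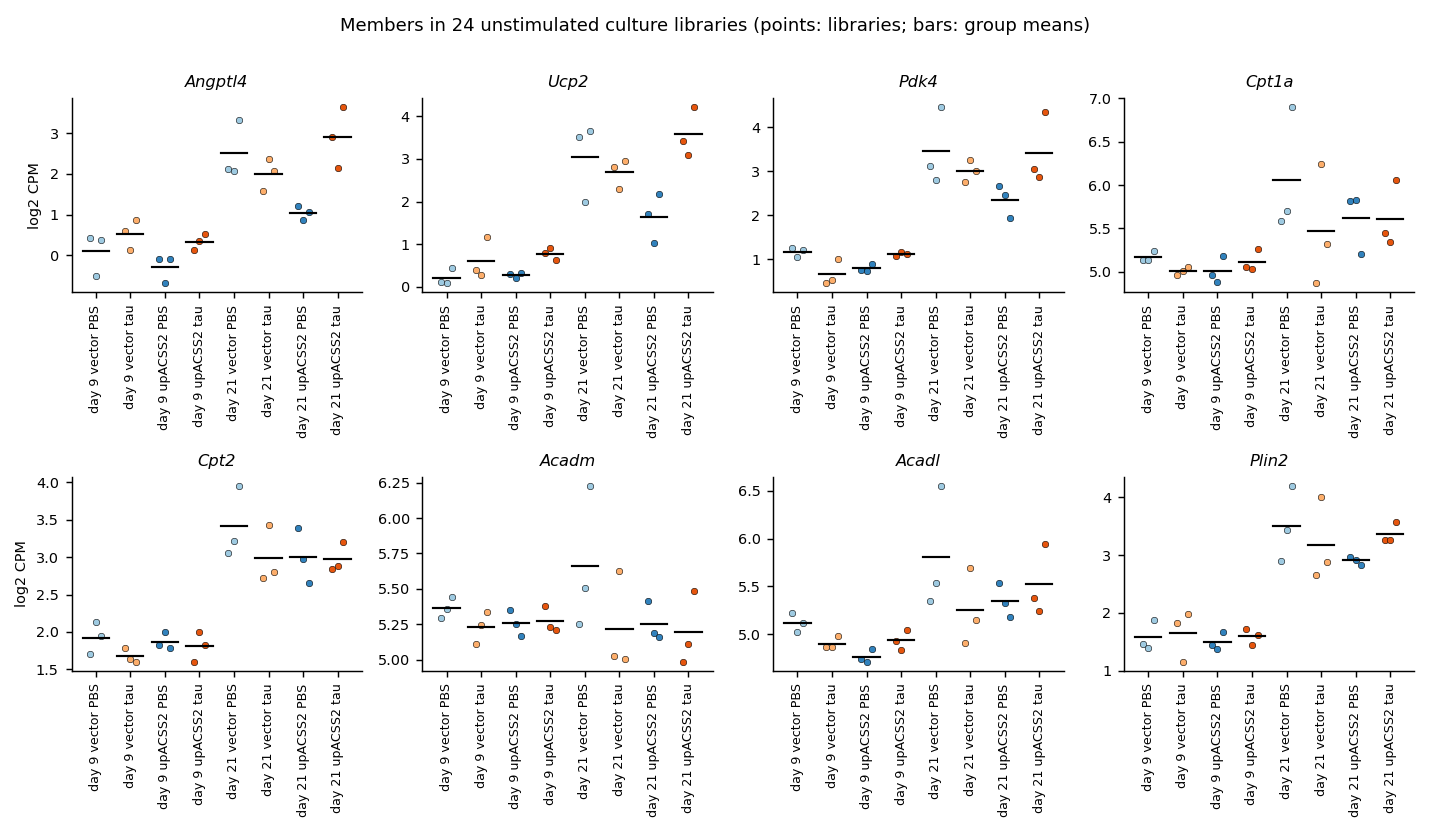
Log2 CPM (y axis) of the 8 genes, a panel each, in the 24 unstimulated culture libraries by group (x axis); points are libraries and bars are group means. Day 21 lies above day 9 for most genes, Angptl4 is lowest of day 21 in the 3 upACSS2 PBS libraries, and 1 vector PBS library is the highest of its group in every panel.

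Library 3 of the vector PBS group on day 21 was the highest of its group for all 8 genes, and its astrocyte marker sum was 20400 CPM against 8231 and 4661 in libraries 1 and 2. In upACSS2 against vector in PBS the 8 members had a median difference of -0.66 and all 8 were lower, and all 7 astrocyte markers were lower with a median of -0.89. Without that library 7 of 8 members were lower, with a median of -0.20. In tau against PBS with vector, which uses the same vector PBS libraries, the median was -0.57 with all 8 lower, and the astrocyte markers had a median of -0.96. Without the library 6 of 8 were lower, with a median of -0.08. In tau against PBS with upACSS2, which does not use it, 6 of 8 members were higher with a median of 0.35. All 7 astrocyte markers were higher there, with a median of 0.54. These counts and medians of the 8 members include Angptl4 and Ucp2, picked for a tau difference on this day, and are a description. No astrocyte marker was called in these 3 comparisons, and their part in the members' differences was not tested.

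Across the 12 libraries of day 21, the correlation of each member's log2 CPM with the log2 astrocyte sum was 0.65 to 0.85 (Pearson), highest for Acadl and Pdk4 (0.83) and lowest for Plin2. Without the third vector PBS library, over 11 libraries, it was 0.24 for Acadm, 0.30 for Cpt2, 0.36 for Plin2 and 0.41 for Cpt1a. It was 0.64 for Acadl, 0.70 for Pdk4 and 0.73 for Angptl4 and Ucp2. Correlations with other marker sums were of either sign, and some were as large in size. With the neuron sum the correlation ran from -0.86 for Acadm to 0.23 for Ucp2 (median -0.74), and without that library from -0.81 to 0.53 (median -0.57). With the choroid plexus sum, a low level of at most 7.46 CPM in the unstimulated cultures, it was 0.474 to 0.775. Without that library it was -0.12 to 0.71. With the microglial sum, also low at 12.6 CPM or less, it was -0.44 to 0.197, and without that library -0.215 to 0.405. These points share depth, scaling and the 4 groups, so the correlations are a description. On day 9, where the astrocyte sum had a narrow range, the correlation ran from -0.60 for Cpt2 to 0.88 for Angptl4.

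**Figure D3:**
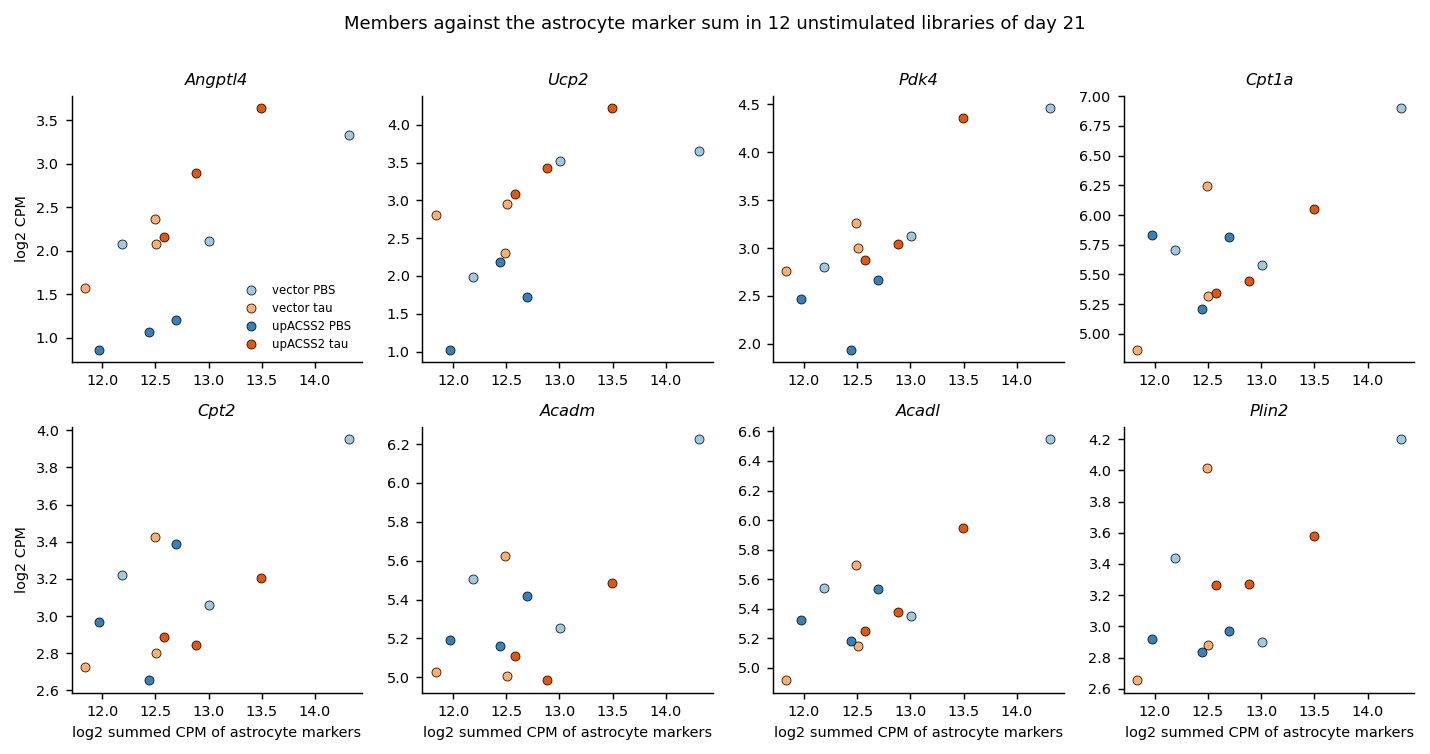
Log2 CPM of the 8 genes (y axis, a panel each) against the log2 summed CPM of 7 astrocyte markers (x axis) in the 12 unstimulated libraries of day 21; points are libraries coloured by group. The vector PBS library at the right is the highest for 6 of the panels, and Angptl4 in upACSS2 PBS lies below libraries with a like astrocyte sum.

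The stimulated cultures are a separate table. Angptl4 and Ucp2 were picked for a tau difference in day 21 neurons, with no table named, so their tau differences are a description here too. Angptl4 was at 2.48, 1.38 and 3.40 CPM in upACSS2 PBS and at 6.27, 3.94 and 4.57 in upACSS2 tau, while vector PBS gave 3.67, 1.45 and 2.99 and vector tau 3.05, 3.14 and 1.88. All 3 upACSS2 tau libraries were above all other stimulated libraries. The difference with tau was 1.03 ± 0.37 with upACSS2 and 0.02 ± 0.38 with vector, and the interaction was 1.01 ± 0.53. Ucp2 was at 5.32, 2.19 and 5.50 CPM in upACSS2 PBS and at 7.85, 5.82 and 14.03 in upACSS2 tau, against 11.5, 4.27 and 11.3 in vector PBS and 6.31, 3.21 and 7.43 in vector tau. For Ucp2 the second library was the lowest of each group. Its interaction was 1.76 ± 0.66. With the replicate number as a block, edgeR called Ucp2 in 3 of the 5 stimulated comparisons: upACSS2 against vector in PBS (-1.04, adjusted p = 0.0247; -1.05 ± 0.47 and adjusted p = 0.305 without the block), tau against PBS with upACSS2 (1.12) and the interaction (1.76). The last 2 are tau differences of a picked gene. The first uses upACSS2 PBS libraries that enter both of them, so none of the 3 is separate evidence.

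Pdk4 was lowest in stimulated vector cultures with tau, at 7.00, 6.92 and 6.05 CPM, against 18.9, 8.30 and 14.4 in vector PBS, 10.1, 11.4 and 9.35 in upACSS2 PBS and 9.51, 9.86 and 19.2 in upACSS2 tau. Every vector tau library was below every other stimulated library. The difference with tau in vector cultures was -1.05 ± 0.31 (edgeR adjusted p = 0.0708; DESeq2 adjusted p = 0.01), and that of upACSS2 against vector in tau 0.95 ± 0.31 (edgeR adjusted p = 0.119; DESeq2 adjusted p = 0.0326). Plin2 was at 6.05, 6.05 and 4.36 CPM in vector tau and at 7.53, 6.46 and 8.87 in vector PBS, again without overlap (-0.47 ± 0.18, edgeR adjusted p = 0.141). Acadl was at 34.8, 39.1 and 18.9 CPM in vector tau and at 49.1, 49.3 and 41.0 in upACSS2 tau (0.59 ± 0.20, adjusted p = 0.135). Cpt1a was at 56.4, 48.2 and 55.8 CPM in vector PBS and at 80.2, 86.0 and 71.6 in upACSS2 PBS, which did not overlap (0.57 ± 0.20, adjusted p = 0.201). Without vector PBS replicate 2 Pdk4 was called lower with tau in vector cultures (-1.32, edgeR adjusted p = 0.0199). Without vector tau replicate 2 Cpt1a was called lower with tau (-0.75, adjusted p = 0.0239) and higher with upACSS2 in tau (0.82, adjusted p = 0.034).

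Without a block, edgeR called no member in the 5 stimulated comparisons, and unadjusted counts are again over the 6 members not picked. Counts by sign and medians over all 8 include the picked Angptl4 and Ucp2 and are a description. With upACSS2 against vector in tau, all 8 members were higher with a median of 0.56 and 5 of the 6 had an unadjusted p under 0.05 (20.4% of all genes), while 0.937% of all genes were called and DESeq2 called Pdk4. With tau against PBS in vector cultures 7 of 8 were lower with a median of -0.46 and 4 of the 6 had an unadjusted p under 0.05 (24.3%), while 3.02% were called and DESeq2 called Pdk4. These comparisons share the vector tau libraries. With upACSS2 against vector in PBS 1, Cpt1a, had an unadjusted p under 0.05 (15.9%) and 0.208% of all genes were called. With tau against PBS in upACSS2 cultures Cpt1a alone had one (14.3%) and 0.208% were called. For the interaction Pdk4 alone had one (14.3%) and 0% were called, and DESeq2 called no member in these last 3 comparisons. The astrocyte sum was 3026 to 4752 CPM in vector tau, 7448 to 8422 in upACSS2 tau and 5562 to 10190 in the PBS groups. All 7 astrocyte markers were lower with tau in vector cultures, 2 of them called, and all 7 were higher in upACSS2 tau than in vector tau, none called; their part was not tested.

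**Figure D4:**
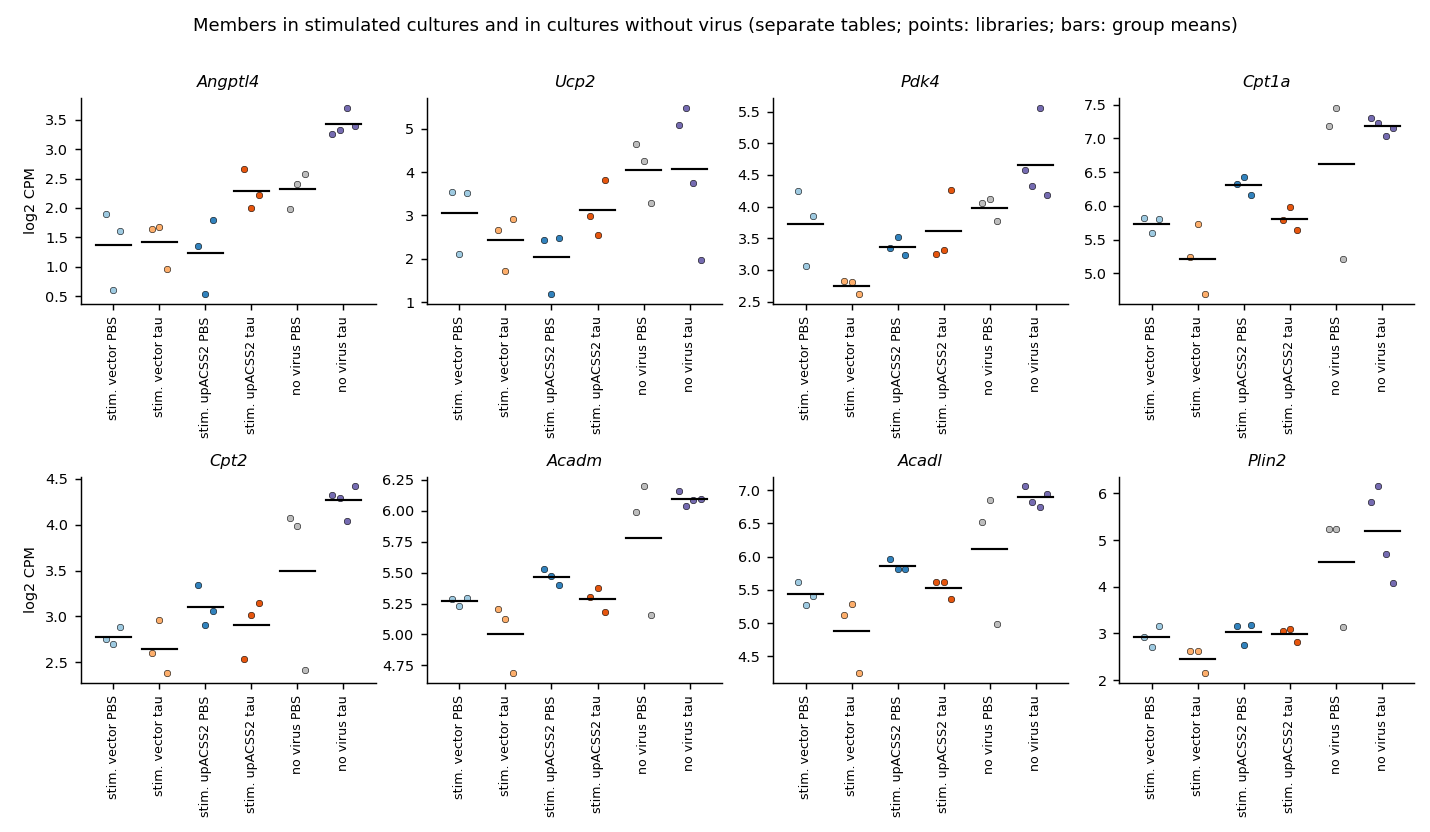
Log2 CPM (y axis) of the 8 genes, a panel each, by group (x axis) in 12 stimulated libraries and 7 libraries without virus, which were counted in separate tables; points are libraries and bars group means. Pdk4 is lowest in the 3 stimulated vector tau libraries, and 1 PBS library without virus lies below the other PBS libraries for 7 of the genes.

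In cultures without virus, Angptl4 was at 3.88, 5.19 and 5.89 CPM with PBS and at 9.43, 9.97, 12.9 and 10.4 with tau. All 4 tau libraries were above all 3 PBS libraries. The log2 difference was 1.08 ± 0.21 (SE, n = 3 and 4), given with no test because these are also neurons of day 21, for which Angptl4 and Ucp2 were picked. Pdk4 was at 16.5, 17.4 and 13.6 CPM with PBS and at 23.7, 20.03, 47.2 and 18.04 with tau, also without overlap (0.79 ± 0.35, edgeR adjusted p = 0.365). Ucp2 was at 24.8, 19.1 and 9.62 CPM with PBS and at 33.8, 44.8, 13.3 and 3.84 with tau, so the tau libraries held both the highest and the lowest value. Its correlation with the microglial marker sum, which ran from 15.4 to 254 CPM over these 7 libraries, was 0.975, as a description over points that share depth and scaling.

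Cpt1a in these cultures was at 146, 176 and 36.8 CPM with PBS and at 157, 149, 131 and 142 with tau, Acadl at 91.9, 116 and 31.6 against 133, 113, 107 and 123, and Plin2 at 37.6, 37.6 and 8.68 against 56.6, 70.9, 26.1 and 16.9. The third PBS library was the lowest of its group for these genes, and its astrocyte sum was 2215 CPM against 8395 and 9929 in libraries 1 and 2. All 8 members were higher with tau, with a median of 0.60. Counts and medians over the 8 include the picked Angptl4 and Ucp2 and are a description. All 7 astrocyte markers were higher with a median of 0.65. By sign, 4 of 4 tested oligodendrocyte markers (median 1.54), both precursor markers (1.51) and 6 of 6 tested microglial markers (0.64) were higher with tau, and 6 of 7 neuron markers were lower (-0.76). None of these markers was called, and their part in the members' differences was not tested. The precursor sum was 14.2 CPM in the third PBS library, 542 and 584 in the others and 856 to 1560 with tau. Without the third PBS library 6 of 8 members were higher with a median of 0.19, while Angptl4 was at 1.19. edgeR called no member and 0% of all genes. None of the 6 members not picked had an unadjusted p under 0.05 (13.9% of all genes), and DESeq2 called none of the 6.

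Genes known to respond to low oxygen were mostly higher with tau on day 21. The list was chosen with earlier results of these data known, so its counts and calls are a description and no separate evidence. Any part of low oxygen in the members' differences was not tested. Of 15 such genes outside the set, 15 were higher with tau in vector cultures (median 0.77), 14 in upACSS2 cultures (0.74), 14 and 15 in stimulated vector and upACSS2 cultures (0.93 and 1.03) and 15 in cultures without virus (0.85), with medians over all genes of -0.015 to 0.012. In stimulated vector cultures, where 3.02% of all genes were called, edgeR called Hk2, a hexokinase (2.56 ± 0.52, adjusted p = 0.0371). In stimulated upACSS2 cultures, where 0.208% were called, it called Hk2 (2.99 ± 0.53, adjusted p = 0.048). It also called the pyruvate dehydrogenase kinase Pdk1 there (1.26 ± 0.20, adjusted p = 0.047). By group mean, Pdk4 was lower with tau in unstimulated and in stimulated vector cultures of day 21 (-1.05 in the latter). It was higher with tau in upACSS2 cultures of both kinds and in cultures without virus. edgeR called none of these Pdk4 differences. Pdk1 differed by 0.51 in stimulated vector cultures (edgeR adjusted p = 0.141).

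In the mice no member was called in any comparison, and the log2 differences between the viruses ran from -0.26 to 0.23. In aged mice the lowest, median and highest values of Angptl4 were 0.862, 1.38 and 1.59 CPM with vector and 0.991, 1.47 and 2.22 with upACSS2 (0.23 ± 0.15, edgeR adjusted p = 0.914). The groups overlapped for every member. Ucp2 had a median of 12.1 CPM with vector and 13.98 with upACSS2, Pdk4 11.4 and 11.1, Cpt1a 24.7 and 26.1, Cpt2 5.46 and 4.96, Acadm 38.2 and 35.3, Acadl 39.97 and 38.3, and Plin2 4.47 and 4.68. The differences of the 8 genes ran from -0.11 to 0.23, edgeR called 0% of all genes, no member had an unadjusted p under 0.05 (5.58% of all genes), and DESeq2 called none.

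In mice of 10 months Angptl4 had 0 to 15 counts a library and did not pass the filter on low counts. The other 7 genes differed by -0.26 to 0.15, with 0% of all genes called, no member with an unadjusted p under 0.05 (8.83%) and no DESeq2 call. Ucp2 ranged from 10.9 to 35.2 CPM with vector and from 10.9 to 39.9 with upACSS2. The correlation of Ucp2 with the choroid plexus sum was 0.88 over 11 mice of 10 months, 0.70 over 24 aged mice and 0.25 over 20 PS19 mice, and with the microglial sum 0.55, 0.62 and 0.80 in the same order, as descriptions over points that share depth and scaling. In mice of 10 months the choroid plexus sum had a median of 106.8 CPM and a highest value of 5494, so a few mice can weigh heavily there.

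In PS19 mice the vector and upACSS2 groups overlapped for every member at both times. At 1 month the differences ran from -0.17 to 0.21, with 0% of all genes called by edgeR, no member with an unadjusted p under 0.05 (2.92%) and no DESeq2 call. At 6 months they ran from -0.16 to 0.21, with 0% called, 1 member with an unadjusted p under 0.05 (14.1%) and no DESeq2 call. That gene was Acadm, at 29.9, 28.9, 40.5, 32.8 and 33.2 CPM with vector and 42.8, 39.2, 39.4, 34.2 and 36.0 with upACSS2, with overlapping groups (0.21 ± 0.10, edgeR adjusted p = 0.331).

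From 1 to 6 months after injection, Cpt1a in vector PS19 mice went from 23.8, 27.3, 23.5, 23.7 and 31.5 CPM to 29.1, 24.1, 46.5, 35.2 and 33.4. The times overlapped, and the difference was 0.38 ± 0.14 (edgeR adjusted p = 0.097). It was the 1 member with an unadjusted p under 0.05 (25.1% of all genes), where 7.46% of all genes were called, and without vector replicate 2 of 6 months Cpt1a was called (0.46, adjusted p = 0.0364). With upACSS2 all 8 members were higher at 6 months with a median of 0.21, 0.0442% of all genes were called, and no member had an unadjusted p under 0.05 (13.7%). For the interaction of virus and time 0% were called and no member had an unadjusted p under 0.05 (12.3%). DESeq2 called no member in these 3 comparisons. Age and time since injection cannot be told apart here, and in the upACSS2 mice and the interaction neither can time and the part of hippocampus, labelled whole at 1 month and dorsal at 6.

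**Figure D5:**
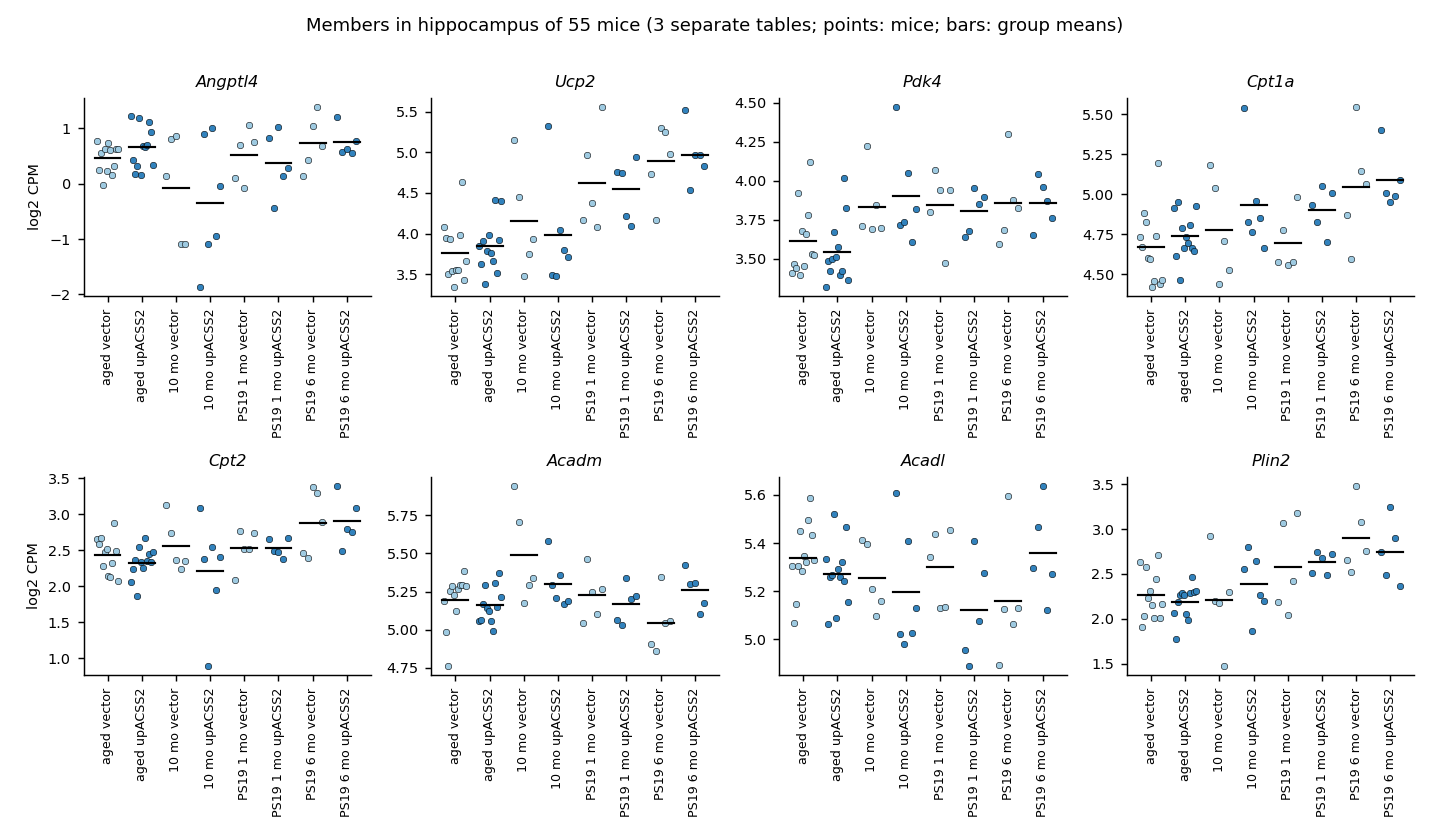
Log2 CPM (y axis) of the 8 genes, a panel each, in hippocampus of 55 mice by group (x axis), from 3 separate tables; points are mice and bars group means. The vector and upACSS2 groups overlap in every panel, and Angptl4 is at most 2.49 CPM.

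Over all 98 libraries, and 12682 genes tested in every table, the genes whose log2 CPM followed each member most closely were found by Pearson correlation after each table's mean was removed. For Angptl4 they were Ppm1m (0.77), Gjb6 (0.77) and Apoe (0.75), for Ucp2 Capg (0.86), Ctsz (0.86) and Tspo (0.83), and for Plin2 Ctsz (0.91), Necap2 (0.90) and Cst3 (0.89). Pdk4 was closest to Csrp1 (0.93), Sdc4 (0.92) and Sft2d2 (0.92), Cpt1a to Plxnb2 (0.88), Myo10 (0.88) and Slc39a12 (0.88), and Cpt2 to Septin10 (0.88), Efemp2 (0.87) and Ctnna1 (0.86). Acadl was closest to Pon2 (0.91), Mlc1 (0.90) and Slc39a12 (0.89), and Acadm to Phkb (0.81), Prdx1 (0.80) and Acadl (0.78). Acadm was thus the one gene with another member among its 3 closest by Pearson correlation. By Spearman correlation some of the genes named left the 3 closest, among them Myo10 (rank 13 for Cpt1a) and Septin10 (rank 11.5 for Cpt2). All 3 genes of Ucp2 stayed. Angptl4 itself was not tested in every table. The libraries share scaling and, within a table, groups, so these values describe this set of libraries.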

How the data were processed

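RNA was counted per gene in 98 libraries, deposited by the authors as 6 tables of raw read counts; per the submitters' processing notes the tools include STAR, featureCounts, HTSeq and DESeq2 and the build mm10, with no versions. Whether counting used strand is not given in the sources used here. Rows without a gene name, 6.13% to 8.74% of counts in the cultures without virus, were left out.

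The members and all gene lists were chosen with earlier results of these data known. Each table was analysed separately with edgeR 4.0.16 in R 4.3.3 (TMM, filterByExpr with a minimum count of 10, quasi-likelihood test, two-sided), with Benjamini-Hochberg adjustment over all genes tested and a threshold of 0.05, in 27 comparisons. Comparisons within a culture day used the 12 libraries of that day, and those between days all 24. Log2 CPM used a prior count of 2. The rule for named genes was all members, Acss2, up to 2 called genes at either extreme of log2 fold change per list and comparison, and the 3 genes most similar to each member; Ppard, and Pdk1 where it was not called, were named after their values were seen. The edgeR step was tested on simulated data.

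Alternatives were RLE size factors, no filter, a replicate block, other sets of libraries, DESeq2 1.42.0 and 98 fits that left out 1 library each. These fits were not 1 per library of the study. Each unstimulated library was left out of the fit to its day and of the fit to both days. The aged mice were not left out in turn. Same-numbered libraries deviated together (every pair over 0.1) in stimulated cultures for upACSS2 against vector in tau (0.111 to 0.359) and tau against PBS with vector (0.123 to 0.326), and in cultures without virus (0.22 to 0.394). Gene spans are from GENCODE on GRCm38 and promoters from RefSeq GRCm38.p6. Library totals limit precision most for Angptl4, which had 15 counts or fewer in each mouse of 10 months.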

Additional observations from a re-analysis of the deposited data

Results flagged for a closer look

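In groups of 4 to 10 samples, 56 gene and group pairs were checked for a sample far from the rest, and 5 stood out, where chance gives about 1 in 20. All 5 were the highest mouse of a group. Ucp2 was at 39.9 CPM in upACSS2 replicate 1 of the mice of 10 months, with the next mouse at 16.3. Cpt1a was at 46.1 CPM in the same mouse, with the next at 30.8. Pdk4 was at 18.4 CPM in vector replicate 2 of that age, with the next at 14.1. In PS19 mice at 6 months, Cpt1a was at 42.1 CPM in upACSS2 replicate 1 (next 34.0) and Acadl at 48.2 CPM in vector replicate 3 (next 34.8). The effect of tau on Acadl on day 9 differed between upACSS2 and vector cultures by 0.41 on the log2 scale in the interaction test.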

How the results depend on the processing

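Counts of called members from day 9 to day 21 stayed within 1.5 times under every alternative run, at 5 to 8, 5 to 6, 5 to 7 and 5 to 6 when 1 library was left out (vector PBS, vector tau, upACSS2 PBS, upACSS2 tau). In the fit to all 24 unstimulated libraries, 0 members were called on day 9 for upACSS2 against vector in PBS and for the interaction, and on day 21 3 for upACSS2 against vector in PBS (Pdk4 and the picked Angptl4 and Ucp2) and 2 for tau against PBS with upACSS2 (the picked genes). Tau against PBS with vector on day 9 gave 1 without the filter on low counts. DESeq2 called 2 members on day 21 for upACSS2 against vector in PBS and 2 for tau against PBS with upACSS2, 1 for each of upACSS2 against vector in tau and tau against PBS with vector in stimulated cultures, and 1 in cultures without virus; the calls of day 21 without stimulation and of cultures without virus were Angptl4 and Ucp2, which were picked. With the replicate number as a block, 1 member was called on day 9 for tau against PBS with vector (Acadl). In stimulated cultures the block called only the picked Ucp2. Its calls were for upACSS2 against vector in PBS, tau against PBS with upACSS2 and the interaction. Same-numbered pairs correlated from -0.111 to 0.145 and from -0.115 to 0.156 in those first 2 stimulated comparisons, while the interaction also uses pairs that were all over 0.1; the block changed no other call. Leaving out 1 library gave 1 to 2 calls on day 9 for upACSS2 against vector in PBS, 0 to 2 for tau against PBS with vector, 0 to 2 for the interaction, 0 to 1 in stimulated cultures for upACSS2 against vector in tau and for tau against PBS with vector, and 0 to 1 for 6 months against 1 month in vector PS19 mice. The extra calls of day 9 came without upACSS2 PBS replicate 3 (Cpt1a), without vector tau replicate 3 (Acadl, Pdk4) and without vector PBS replicate 2 (Acadl). The cause of these shifts was not tested. No result changed sign among those called.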
